A study of Mus musculus with 9 samples.

Results

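The Hox, Pbx and Meis genes of the mouse spinal cord were described in 9 RNA libraries of an antisense oligonucleotide study, as every gene of the deposited table whose symbol named a gene of the Hox clusters a, b, c or d, of the Pbx family or of the Meis family. There were 34 such genes among 14831 in the table: 27 Hox, 4 Pbx and 3 Meis genes. All mice were wild-type C57Bl/6 females of 10 weeks, and each had 10 µl injected in the lateral ventricle of the right brain hemisphere. In 3 libraries the mice had received 500 µg of an antisense oligonucleotide (ASO) against mouse C9orf72, in 3 libraries 500 µg of a control ASO, and in 3 libraries saline. Spinal cord was taken after 2 weeks and its total RNA sequenced with strand information. The stated purpose was to see what losing C9orf72 does in the cord. The mice carried no disease allele, and one of the control ASO libraries had its strain given in another label field than the rest. The labels do not say which levels of the cord were dissected, nor whether each library was a separate animal, so p-values measure only the spread between these libraries.

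Hox genes encode homeodomain transcription factors and lie side by side in clusters, where the position of a gene follows the order of its expression along the body. Genes with low paralogue numbers are active from the hindbrain on, those with middle numbers in cervical and thoracic cord, and those with high numbers in lumbar and sacral cord, where they set the identity of motor neuron columns. Pbx and Meis proteins, homeodomain factors of the TALE class, bind DNA together with Hox proteins and raise the precision with which these choose their targets. Much of this code, laid down in the embryo, is kept in adult spinal cells.

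The values were taken as RPKM, reads scaled by transcript length and by library depth, so that levels can be compared between genes. Library depth was estimated at 90.4 to 123.9 M reads from the steps between low values, and the table replaces all values below 0.5 RPKM by 0.1. At these depths 0.5 RPKM stood for 45.2 to 62 reads per kilobase. C9orf72 itself was at 2.68, 3.40 and 3.12 RPKM with the C9orf72 ASO, against 11.2, 11.7 and 10.6 with the control ASO and 10.5, 11.4 and 11.5 with saline. Its log2 fold change was -1.84 against the control ASO (limma, adjusted p = 1.8e-06) and -1.83 against saline (adjusted p = 1.9e-06), so the labels and the target matched. Of 28 transcription factors of spinal neurons 22 had a row, with a summed level of 54.7 to 65.6 RPKM per library. Of 13 markers of forebrain, midbrain and cerebellum only En2 and Neurod6 had a row, at a summed 2.71 to 3.75 RPKM. Of 9 motor neuron markers 8 had a row, and of 9 markers of dorsal root ganglion neurons 2 did.

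Promoters of 300 bases (250 before the transcription start and 50 after it, RefSeq, GRCm38.p6) could be read for 19 members, and 4 are shown because they belong to genes of high and of low level. Hoxb8 (chr11:96281655-96281954, plus strand) was the highest member, Hoxd8 (chr2:74704365-74704664, plus strand) and Hoxd9 (chr2:74697513-74697812, plus strand) differed most in level among the neighbouring genes compared that stayed above the floor, and Hoxa2 (chr6:52164782-52165081, minus strand) was a low member with a low paralogue number. Capitals mark matches on either strand to TGATNNAT, a Pbx-Hox motif, to TGACAG, the core bound by Meis, or to TTTATNG, a motif of Cdx factors, which open Hox clusters in the embryo.
Hoxb8: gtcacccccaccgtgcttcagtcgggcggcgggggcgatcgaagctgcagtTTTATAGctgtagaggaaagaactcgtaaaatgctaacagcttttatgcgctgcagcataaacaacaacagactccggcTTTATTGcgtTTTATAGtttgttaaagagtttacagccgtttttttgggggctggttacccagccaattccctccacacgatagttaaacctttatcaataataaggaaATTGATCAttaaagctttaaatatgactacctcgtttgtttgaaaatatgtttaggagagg
Hoxd8: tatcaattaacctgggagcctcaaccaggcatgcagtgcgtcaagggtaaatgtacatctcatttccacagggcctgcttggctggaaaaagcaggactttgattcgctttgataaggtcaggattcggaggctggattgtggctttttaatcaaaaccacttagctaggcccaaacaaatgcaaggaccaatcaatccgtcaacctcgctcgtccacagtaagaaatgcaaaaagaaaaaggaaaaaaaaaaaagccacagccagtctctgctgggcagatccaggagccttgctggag
Hoxd9: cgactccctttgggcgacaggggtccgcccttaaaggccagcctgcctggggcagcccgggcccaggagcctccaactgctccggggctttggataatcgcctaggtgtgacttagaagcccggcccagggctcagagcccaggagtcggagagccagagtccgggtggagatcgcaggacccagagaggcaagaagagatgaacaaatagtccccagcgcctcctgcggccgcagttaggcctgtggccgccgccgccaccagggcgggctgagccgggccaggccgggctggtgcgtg
Hoxa2: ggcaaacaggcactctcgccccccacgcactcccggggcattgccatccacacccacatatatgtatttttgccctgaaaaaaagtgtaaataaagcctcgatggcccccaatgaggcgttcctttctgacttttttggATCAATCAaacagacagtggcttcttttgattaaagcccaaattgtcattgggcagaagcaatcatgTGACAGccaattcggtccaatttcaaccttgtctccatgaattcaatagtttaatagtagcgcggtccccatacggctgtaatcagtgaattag

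The Hoxb8 window held 3 matches to TTTATNG and 1 to TGATNNAT, the Hoxa2 window 1 to TGATNNAT and 1 to TGACAG, and the Hoxd8 and Hoxd9 windows none. No 2 matches overlapped. Over the 20 promoters of the 19 members, 10% held TGATNNAT, 10% TGACAG and 15% TTTATNG. Among all 32851 promoters of the table the shares were 8.85%, 19.2% and 10.9%. The members' windows were rich in CpG, with a median of 17 against 7 in all promoters, and their median GC content was 58.2% against 52.7%. A match describes the letters and is not evidence of binding.

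A second kind of sequence lies inside the clusters: genes for the microRNAs miR-196a and miR-10a. Mouse miR-196a-5p is a known repressor of Hox transcripts that cleaves the Hoxb8 messenger RNA. It is shown (RefSeq, seed of bases 2 to 8 in capitals) with the stretch of 22 bases most complementary to it in the annotated 3′ untranslated region of Hoxb8 and of Hoxd8. In the stretches capitals mark bases complementary to the microRNA, and pairs of G with U are not counted as complementary.
miR-196a-5p: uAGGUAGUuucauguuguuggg
Hoxb8 stretch: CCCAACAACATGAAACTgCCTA
Hoxd8 stretch: CtCAACAACATaAActTcCtaA

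In Hoxb8 21 of 22 bases were complementary, and in Hoxd8 15 of 22 were, a number that no member besides Hoxb8 exceeded. The remaining base of the Hoxb8 stretch is a G that faces a U of the seed. Exact seed matches stood in the untranslated regions of 10 of the 34 members, Hoxb8 not among them. The gene of the precursor, Mir196a-1, was at 0.525 and 0.559 RPKM in C9orf72 ASO replicates 1 and 3 and at the floor in the other 7 libraries. Mir10a, which lies near Hoxb4, ranged between 0.664 and 1.94 RPKM. Such values belong to the row of the gene and are not levels of mature microRNA.

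Hox expression in the cord was centred on paralogue 8. The 3 genes Hoxb8, Hoxc8 and Hoxd8 made up 50.4% of the summed Hox RPKM (range 49.3% to 52.5% over 9 libraries), and paralogue 7 added 14.3%. On either side the shares were smaller: paralogues 4, 5 and 6 held 4.34%, 8.06% and 7.80%, paralogue 9 held 9.72%, and paralogue 10 held 0.52%. The genes with the lowest numbers had little, with 0.22% for paralogue 1, 1.32% for paralogue 2 and 3.31% for paralogue 3. In coarser classes, paralogues 4 to 8 held 83.9% to 86.9% of Hox RPKM in each library, paralogues 9 and 10 held 8.43% to 11.3%, and paralogues 1 to 3 held 4.61% to 5.06%. The mean paralogue number, weighted by RPKM, was 7.10 to 7.16. The ordering of the classes was the same in all 9 libraries.

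**Figure D1:**
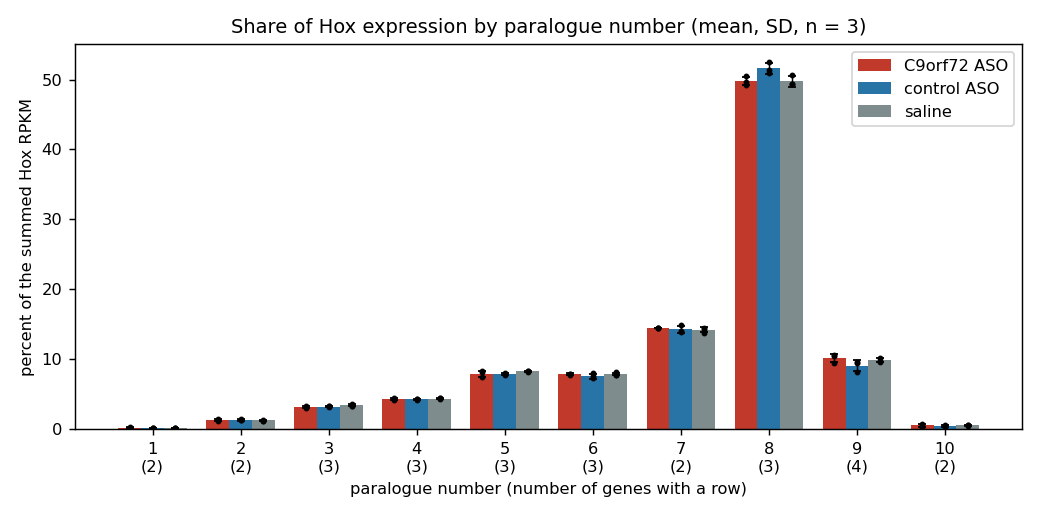
Share of the summed Hox RPKM (percent, vertical axis) by paralogue number (horizontal axis, with the number of genes that had a row), as group mean with SD over 3 libraries and each library as a point. Paralogue 8 stands at 49.3% to 52.5% in every library, and paralogues 1 and 10 stay under 1%.

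The 12 Hox symbols that would complete the clusters, among them Hoxb1, Hoxd4, Hoxa11 and all genes of paralogue 12 and 13, had no row and were not analysed here, so the shares are of the 27 genes with one. Paralogue 8 kept a share of 45.6% to 60.6% when the genes of any 1 cluster were left out. Summed over genes, the Hoxb cluster held 51.5% of Hox RPKM, Hoxc 22.2%, Hoxa 16.9% and Hoxd 9.44%. The total over all Hox genes was 453 to 534 RPKM per library.

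In the Hoxa cluster (chromosome 6) the highest member was Hoxa7, a factor of thoracic segments. It was at 36.2, 39.6 and 39.8 RPKM with the C9orf72 ASO, 40.3, 39.1 and 47.8 with the control ASO, and 40.9, 37.9 and 40.7 with saline. Its level exceeded that of its neighbour Hoxa6 9.88-fold (range 7.81 to 12.3). The 9 libraries agreed on this order, and the control ASO replicate 3 value stood above all others.

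Hoxa2, which patterns the hindbrain and its neural crest, was the lowest-numbered Hoxa gene past the filter. It had 2.39, 2.05 and 2.20 RPKM with the C9orf72 ASO, 1.81, 2.17 and 2.57 with the control ASO, and 1.94, 2.11 and 2.01 with saline. The 3 groups overlapped. Hoxa10, a lumbar gene, was at 0.631 in C9orf72 ASO replicate 3, 0.520 in control ASO replicate 2, 0.509 in saline replicate 1, and at the floor in the other 6 libraries. Between these ends, Hoxa3, Hoxa4, Hoxa5, Hoxa6 and Hoxa9 averaged 3.77 ± 0.41, 4.76 ± 0.35, 16.4 ± 0.89, 4.12 ± 0.47 and 10.9 ± 1.4 RPKM (SD, n = 9 libraries).

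In the Hoxb cluster (chromosome 11) levels climbed almost without a break with the paralogue number up to Hoxb8. Hoxb8, required for spinal sensory circuits and skeletal pattern, was at 116, 119 and 154 RPKM with the C9orf72 ASO, 135, 141 and 147 with the control ASO, and 148, 136 and 134 with saline. These values rest on about 34023 to 50007 reads per library, and the mean ranked 323 of 14831 genes. C9orf72 ASO replicates 1 and 2 were the lowest and replicate 3 the highest of all libraries.

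Hoxb9, the last Hoxb gene with a row and a gene of thoracic cord, had 26.2, 22.3 and 29.4 RPKM with the C9orf72 ASO, 24.1, 26.7 and 23.8 with the control ASO, and 26.004, 27.4 and 27.1 with saline. Hoxb8 stood 5.30-fold above it (range 4.44 to 6.18). Hoxb2, at the other end, had 4.24, 4.22 and 4.11 RPKM with the C9orf72 ASO, 4.31, 4.99 and 4.35 with the control ASO, and 4.34, 3.66 and 4.81 with saline. Hoxb2 acts in hindbrain segments, and its level was far below that of the middle of the cluster. Hoxb3, Hoxb4, Hoxb5, Hoxb6 and Hoxb7 averaged 6.35 ± 0.70, 9.14 ± 0.71, 20.2 ± 1.5, 20.3 ± 1.8 and 30.2 ± 2.4 RPKM (SD, n = 9). Hoxb3 shares 52.9% of its exon bases with the opposite-strand transcript Hoxb3os in the GENCODE M21 annotation, and whether reads were counted by strand is not given in the sources used here.

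In the Hoxc cluster (chromosome 15) Hoxc8, a gene of brachial and thoracic motor neurons, was highest. It had 69.8, 75.2 and 60.5 RPKM with the C9orf72 ASO, 73.1, 77.8 and 95.4 with the control ASO, and 66.2, 70.6 and 69.7 with saline. Control ASO replicate 3 was the highest library and C9orf72 ASO replicate 3 the lowest. Hoxc10, which specifies lumbar motor neurons, was the last member with a row, at 1.68, 2.38 and 2.94 RPKM with the C9orf72 ASO, 2.34, 2.31 and 1.45 with the control ASO, and 2.61, 2.27 and 2.81 with saline. The order of these 2 genes in the replicate 3 libraries was opposite: C9orf72 ASO replicate 3 was highest and control ASO replicate 3 lowest for Hoxc10.

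Hoxc8 exceeded Hoxc9, which sets thoracic motor neuron identity, 7.82-fold (range 6.67 to 9.98), and Hoxc9 exceeded Hoxc10 4.26-fold (range 3.09 to 6.61). Hoxc4, active from the cervical cord on, was at 7.11, 6.95 and 7.55 RPKM with the C9orf72 ASO, 7.41, 7.36 and 7.94 with the control ASO, and 7.87, 7.50 and 6.97 with saline, with all 3 groups overlapping. Hoxc5, Hoxc6, the gene of limb motor neurons at brachial level, and Hoxc9 averaged 2.96 ± 0.27, 13.9 ± 0.60 and 9.38 ± 0.55 RPKM (SD, n = 9).

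In the Hoxd cluster (chromosome 2) the means of the 4 members with a row ran from 0.932 RPKM for Hoxd1 to 37.7 for Hoxd8. Hoxd8 was at 36.7, 38.7 and 37.7 RPKM with the C9orf72 ASO, 36.2, 39.5 and 37.7 with the control ASO, and 38.6, 36.2 and 38.4 with saline. It was the steadiest of the members that were above the floor in all libraries, with a coefficient of variation of 3.12%. Hoxd9, its direct neighbour and a gene of more caudal cord, had 1.12, 1.28 and 1.80 RPKM with the C9orf72 ASO, 1.55, 1.72 and 1.31 with the control ASO, and 1.58, 1.40 and 1.50 with saline. The step between the 2 genes, 26.1-fold (range 21.0 to 32.8), was the steepest found between neighbours of the kind compared here above the floor. Hoxd1 had 0.822, 0.656 and 1.06 RPKM with the C9orf72 ASO, 1.12, 0.837 and 0.951 with the control ASO, and 1.19, 0.853 and 0.894 with saline. Hoxd1, which acts in sensory neurons in the mouse, was the lowest member with no library at the floor, and rested on about 133 to 249 reads. Hoxd3 is uncertain, since 62.3% of its exon bases are shared on the same strand with Hoxd4 and another annotated transcript.

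**Figure D2:**
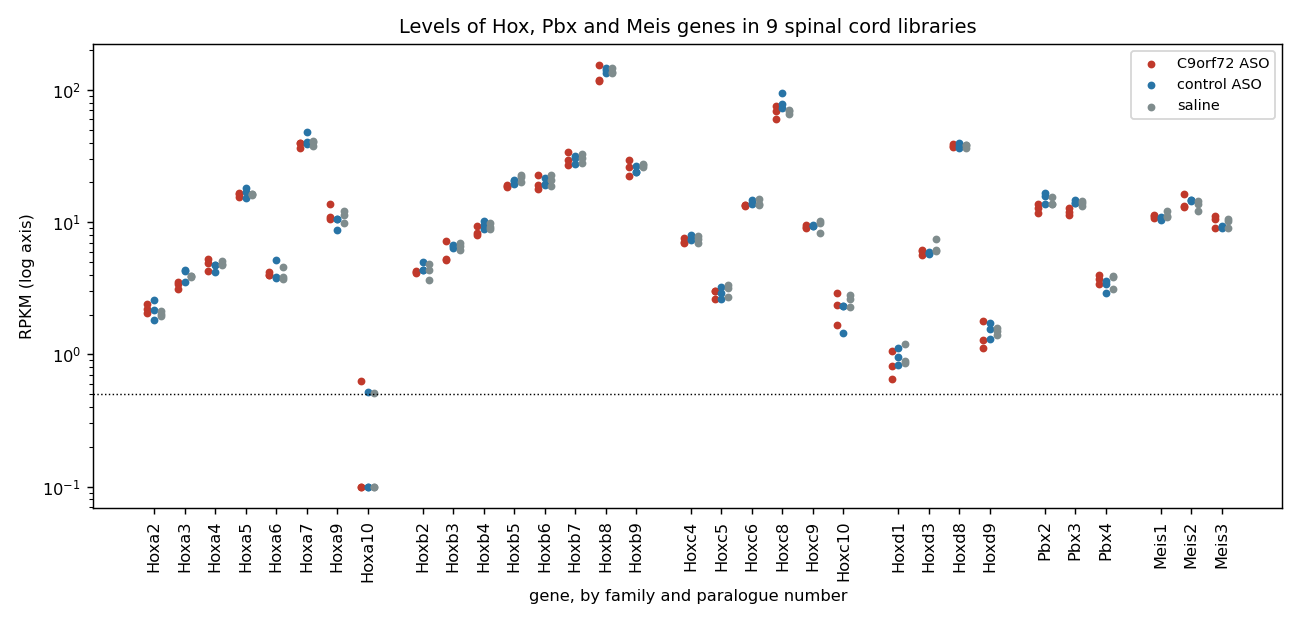
Level of 32 of the genes (RPKM, log axis) by family and paralogue number, with each of the 9 libraries as a point coloured by group and a dotted line at 0.5 RPKM, under which values stand at 0.1. Hoxb8 is highest at 116 to 154 RPKM, the groups lie over each other for most genes, and Hoxa10 reaches the line in 3 libraries.

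Ordered by mean level, the first places went to Hoxb8 (137 RPKM), Hoxc8 (73.2), Hoxa7 (40.3) and Hoxd8 (37.7), followed by Hoxb7, Hoxb9, Hoxb6, Hoxb5 and Hoxa5. The ranges over 9 libraries did not overlap between Hoxb8 and Hoxc8 or between Hoxc8 and Hoxa7, while Hoxa7 and Hoxd8 overlapped. Further down, gaps without overlap separated Hoxd8 and Hoxb7, Hoxb5 and Hoxa5, Hoxd3 and Hoxa4, Hoxa2 and Hoxd9, and Hoxd1 and Hoxa10. All other neighbours in the order overlapped.

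The cofactors were at moderate levels. Pbx2 was the highest Pbx gene, with 11.7, 12.8 and 13.7 RPKM with the C9orf72 ASO, 13.8, 15.8 and 16.7 with the control ASO, and 15.6, 13.7 and 13.7 with saline. Pbx3 had 11.8, 12.7 and 11.4 RPKM with the C9orf72 ASO, 14.0, 14.6 and 13.9 with the control ASO, and 13.4, 13.8 and 14.4 with saline. For both genes all 3 C9orf72 ASO libraries were below all 6 others, for Pbx2 by a narrow margin. Pbx3 is known in the mouse for its part in respiratory and dorsal horn circuits.

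Pbx4 had 3.43, 3.70 and 3.95 RPKM with the C9orf72 ASO, 2.94, 3.39 and 3.59 with the control ASO, and 3.91, 3.11 and 3.83 with saline, and the groups overlapped.

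Meis1, the partner of Pbx that holds it in the nucleus, was at 10.7, 11.2 and 11.3 RPKM with the C9orf72 ASO, 10.4, 10.9 and 10.8 with the control ASO, and 12.2, 10.9 and 11.1 with saline. Meis2 was at 13.4, 16.4 and 13.1 RPKM with the C9orf72 ASO, 14.6, 14.8 and 14.5 with the control ASO, and 12.2, 13.7 and 14.5 with saline. Meis3, which directs hindbrain fate in the frog embryo, had 10.7, 8.97 and 11.2 RPKM with the C9orf72 ASO, 9.38, 9.04 and 9.21 with the control ASO, and 10.6, 8.97 and 10.3 with saline. All 3 groups overlapped for each Meis gene. The PREP proteins Pknox1 and Pknox2, relatives of Meis that also bind Pbx, averaged 5.06 ± 0.19 and 7.36 ± 0.37 RPKM (SD, n = 9).

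No Hox, Pbx or Meis gene passed an adjusted p of 0.05 in any comparison of the 3 groups. The tests came from limma on log2(RPKM + 0.1), in 1 fit of 9 libraries over 14430 genes with at least 0.5 RPKM in 3 or more libraries, with Benjamini-Hochberg adjustment over all of them. Of the members 33 were tested and 32 had no library at the floor. With the C9orf72 ASO 0 of 33 members passed against the control ASO, where 0.0693% of all genes passed, and 0 of 33 against saline, where 0.0693% passed. With the control ASO 0 of 33 passed against saline, beside 0.00693% of all genes. A moderated F-test for any difference among the 3 groups called 0 of 33 members and 0.118% of all genes. Such low backgrounds leave little to read from a count of 0. The members' count stayed at 0 in each of 19 alternative settings.

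At an unadjusted p under 0.05, 5 members were lower with the C9orf72 ASO than with the control ASO (among them Pbx3, Pbx2, Hoxa3 and Hoxc8) and none was higher, against 14.1% of all genes in either direction. Against saline 3 members were lower with the C9orf72 ASO (Pbx3, Hoxb5 and Hoxa3), against 14% of all genes. With the control ASO, 1 member was higher than with saline (Hoxc8), against 5.35% of all genes. The F-test gave 5 such members (Pbx3, Hoxb5, Pbx2, Hoxa3 and Hoxc8), against 12.5% of all genes. Counted in either direction, the shares among members are near or below the background. Shares of all genes by direction were not counted at this threshold. The comparisons share libraries, so their counts are not independent.

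These counts moved with single libraries. Against the control ASO the count was 2 without control ASO replicate 3, where 8% of all genes were under 0.05. It was 7 of 32 without C9orf72 ASO replicate 3 (16.1% of all genes) and 7 of 33 without saline replicate 2 (17.6%). Against saline the count was 8 of 32 without C9orf72 ASO replicate 3, where 18.7% of all genes were. For the control ASO against saline it was 5 without saline replicate 2 (16.3% of all genes) and 0 without control ASO replicate 3 or saline replicate 1. The F-test gave 7 of 32 members without C9orf72 ASO replicate 3 (15.7% of all genes). It gave 1 member when C9orf72 ASO replicate 1 was left out (6.66% of all genes). It gave 2 without control ASO replicate 2 (12.2% of all genes) and 2 without control ASO replicate 3 (8.42%). Without saline replicate 3 it gave 3 (11.4%).

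Against the control ASO, Pbx3 had the smallest p of the members. Its log2 fold change was -0.24 (SE 0.06, 95% interval -0.37 to -0.11, limma adjusted p = 0.211). Pbx2 was at -0.27 (SE 0.09, limma adjusted p = 0.254). Hoxa3, a gene of hindbrain and upper cervical segments, had 3.14, 3.40 and 3.56 RPKM with the C9orf72 ASO, 3.51, 4.35 and 4.29 with the control ASO, and 3.91, 3.86 and 3.94 with saline. Its log2 fold change was -0.26 (SE 0.09, limma adjusted p = 0.267) against the control ASO, whose lowest library lay inside the range of the C9orf72 ASO. Its C9orf72 ASO libraries were all below those of saline.

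Against saline, Pbx3 was at -0.21 (SE 0.06, limma adjusted p = 0.207) and Hoxa3 at -0.21 (SE 0.09, limma adjusted p = 0.317). Hoxb5, a cervical and brachial gene, had 18.4, 18.7 and 19.1 RPKM with the C9orf72 ASO, 19.5, 20.9 and 20.5 with the control ASO, and 22.9, 20.02 and 22.2 with saline. The C9orf72 ASO libraries were all below the 6 others. The log2 fold change of Hoxb5 was -0.21 (SE 0.06, limma adjusted p = 0.222) against saline and -0.11 (SE 0.06, limma adjusted p = 0.422) against the control ASO.

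Between the control ASO and saline, Hoxc8 was at 0.25 (SE 0.10, limma adjusted p = 0.794). Without control ASO replicate 3 this value was 0.13. Hoxd3 had 6.21, 5.69 and 6.10 RPKM with the C9orf72 ASO, 5.72, 5.87 and 5.93 with the control ASO, and 7.47, 6.16 and 6.10 with saline, and all control ASO libraries were below those of saline (log2 fold change -0.16, SE 0.08, limma adjusted p = 0.794). Without saline replicate 1 the value of Hoxd3 was -0.068. Hoxc10 was at -0.35 (SE 0.20, 95% interval -0.80 to 0.10, limma adjusted p = 0.794), with overlapping groups, and at -0.13 without control ASO replicate 3.

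**Figure D3:**
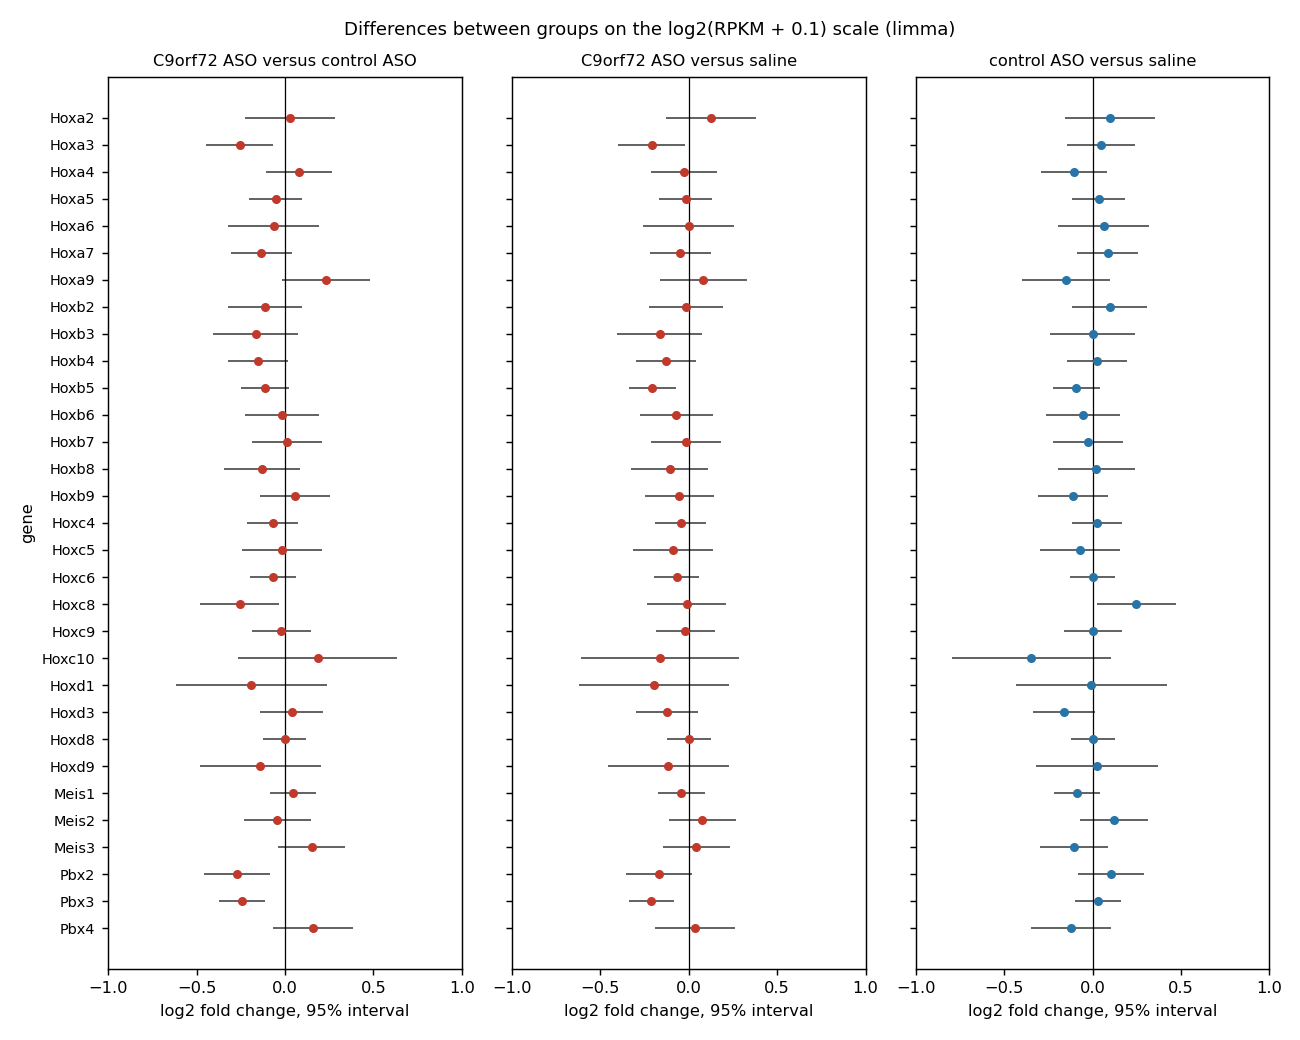
Log2 fold change with its 95% interval (limma, horizontal axis) of 31 members with no library at the floor (vertical axis), with the C9orf72 ASO against the control ASO, the C9orf72 ASO against saline, and the control ASO against saline. All points lie between -0.35 and 0.25, Pbx3 and Hoxa3 have an interval below 0 in both C9orf72 ASO panels, and the intervals of Hoxc10, Hoxd1 and Hoxd9 are wide.

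Counted by overlap of the 3 libraries per group, 7 of 33 members had no overlap between the C9orf72 ASO and the control ASO, against 22% of all genes. Of these 6 were lower, among them Pbx2, Pbx3, Hoxb2, Hoxb5 and Hoxc6 (background 11.8%), and higher was Hoxa9 (background 10.1%). Between the C9orf72 ASO and saline, 4 members did not overlap, all lower: Pbx2, Pbx3, Hoxa3 and Hoxb5, against 12.4% of all genes lower, 5.61% higher and 18% in either direction. Between the control ASO and saline 3 did not overlap (Hoxc8 higher, Hoxa4 and Hoxd3 lower), against 3.16% of all genes higher, 7.15% lower and 10.3% in either direction. Pbx2, Pbx3 and Hoxb5 were the members whose C9orf72 ASO libraries lay below those of both other groups.

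How narrowly the members stayed together can be read from the intervals. The median log2 fold change of the 33 members was -0.05 with the C9orf72 ASO against the control ASO, -0.05 against saline, and 0.00 with the control ASO against saline. Over all genes the medians were -0.01, -0.03 and -0.02. The 95% interval lay within 0.5 of 0 on the log2 scale for 30, 30 and 31 of 33 members in these comparisons, against 87.0%, 87.9% and 89.4% of all genes. The members with wider intervals included Hoxa10, which was at the floor in 6 libraries and for which no difference was detectable. The median residual SD of log2 values within groups was 0.13 for members and 0.10 for all genes tested.

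Over the 9 libraries, regardless of group, the coefficient of variation of the 32 members above the floor had a median of 8.82%, and 21 of them were under 10%. The widest was Hoxc10 at 21.0%, on about 250 to 689 reads, for which counting error alone gives 4.5%. Hoxa9 (12.9%) and Hoxc8 (13.3%) had counting errors of 1.21% and 0.66%.

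Libraries of the same group differed in the balance of paralogues 9 and 10 over paralogues 4 to 8. Paralogue 9 held 9.72% of Hox RPKM and paralogue 10 held 0.52%, so the balance mostly follows paralogue 9. That group includes the thoracic genes Hoxb9 and Hoxc9, so the balance does not set lumbar against middle cord. The summed RPKM of paralogues 9 and 10 was 12.9%, 11.7% and 13.5% of that of paralogues 4 to 8 with the C9orf72 ASO, 11.7%, 11.95% and 9.70% with the control ASO, and 12.1%, 12.1% and 12.8% with saline. Control ASO replicate 3 was lowest and C9orf72 ASO replicate 3 highest. The C9orf72 ASO libraries overlapped with both other groups, while all 3 control ASO libraries were below those of saline, by a narrow margin for control ASO replicate 2. On the log2 scale the mean difference was 0.20 for the C9orf72 ASO minus the control ASO, 0.04 for the C9orf72 ASO minus saline and -0.16 for the control ASO minus saline, with a pooled SD between replicates of 0.12. Without both replicate 3 libraries, chosen after their values were seen, the difference between the C9orf72 ASO and the control ASO was 0.06.

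Among single genes, C9orf72 ASO replicate 3 was the highest library for 5 of 6 members of paralogues 9 and 10, Hoxa10 among them. It was highest for 3 of 14 members of paralogues 4 to 8 and for 1 of 7 of paralogues 1 to 3. Relative to the mean of the other libraries it was at 1.16 for Hoxb9. For paralogues 7 and 8 it was at 1.15 for Hoxb7 and Hoxb8, 0.988 for Hoxa7, 0.999 for Hoxd8 and 0.810 for Hoxc8. The low end was less uniform: control ASO replicate 3 was lowest for Hoxa9 and Hoxc10, and C9orf72 ASO replicate 1 for Hoxd9. C9orf72 ASO replicate 2 was lowest for Hoxb9 and saline replicate 2 for Hoxc9. Hoxa10 had 6 libraries tied at the floor. Hoxa9, named after its values were seen, had 10.6, 10.9 and 13.8 RPKM with the C9orf72 ASO, 10.6, 10.5 and 8.78 with the control ASO, and 12.1, 9.80 and 11.3 with saline. Its log2 fold change was 0.23 (SE 0.11, limma adjusted p = 0.379) against the control ASO, where the groups were kept apart by a gap in the second decimal. Gm53, a noncoding transcript between Hoxb13 and Hoxb9 in the GRCm38 annotation, had 2.26, 1.90 and 3.80 RPKM with the C9orf72 ASO, 2.45, 2.81 and 0.840 with the control ASO, and 2.80, 2.54 and 2.19 with saline. Gm53 too was highest in C9orf72 ASO replicate 3 and lowest in control ASO replicate 3. It is 1 of 8 noncoding transcripts of its list with a row, and not the one with the smallest p.

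Across the 9 libraries the log2 values of Hoxa9 and Hoxc10 had a Pearson correlation of 0.79, those of Hoxc8 and Hoxa9 one of -0.88, and those of Hoxc8 and Hoxc10 one of -0.76. Hoxa9 was less closely tied to the other genes of its paralogue group, at 0.56 with Hoxd9, 0.53 with Hoxb9 and 0.16 with Hoxc9. Hoxb7 and Hoxb8 were at 0.76. These are descriptions over libraries that share 3 groups and were picked for their pattern, so no p is given. In log2 deviation from its 9-library mean, Hoxc8 was lowest in C9orf72 ASO replicate 3 (-0.26), where Hoxa9 (0.34) and Hoxc10 (0.36) were highest. It was highest in control ASO replicate 3 (0.39), where Hoxa9 (-0.30) and Hoxc10 (-0.61) were lowest. In C9orf72 ASO replicate 1, Hoxc8 (-0.06) and Hoxc10 (-0.41) were both below their means. How far the correlations rest on the replicate 3 libraries was not tested. Hoxc8 was not tied in this way to Hoxb8 of the same paralogue group, with a correlation of -0.05.

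**Figure D4:**
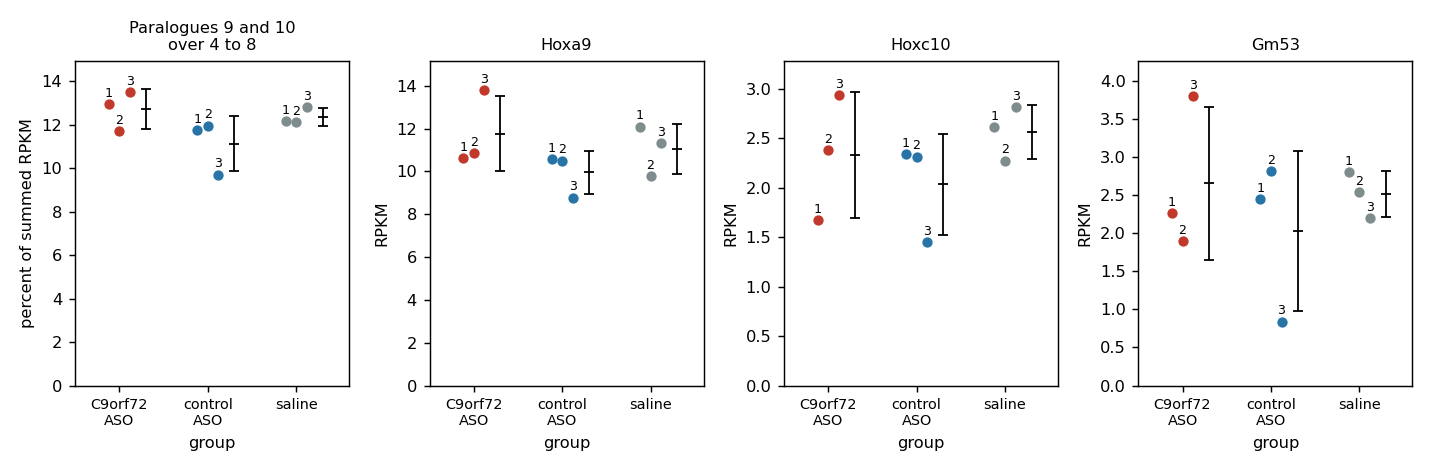
Summed RPKM of paralogues 9 and 10 as percent of paralogues 4 to 8, and RPKM of Hoxa9, Hoxc10 and Gm53 (vertical axes), by group, with each library as a numbered point and the group mean and SD as a bar beside it. In all 4 panels C9orf72 ASO replicate 3 is highest and control ASO replicate 3 lowest. The panels are not independent, since Hoxa9 and Hoxc10 are part of the sum in the first, and Hoxa9 was chosen after its values were seen.

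**Figure D5:**
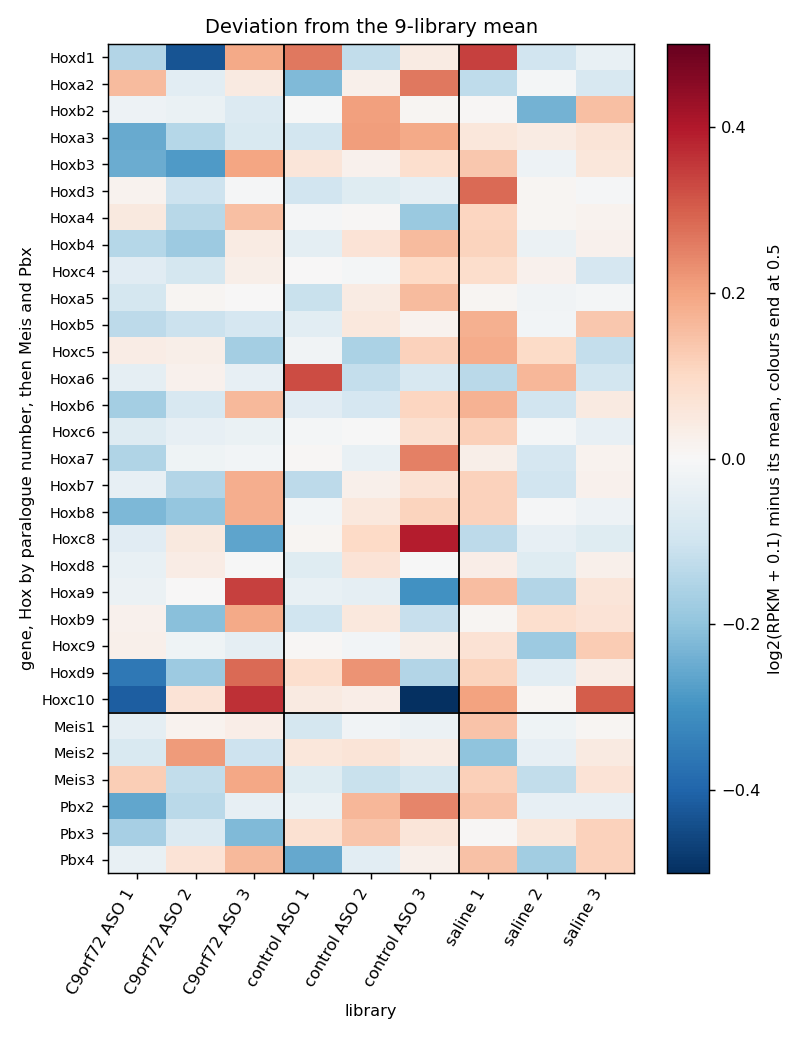
Deviation of log2(RPKM + 0.1) from the mean of the 9 libraries (colour scale, ending at 0.5 on either side) for 31 members above the floor, Hox genes by paralogue number and then Meis and Pbx genes (vertical axis), by library (horizontal axis). Hoxa9 and Hoxc10 are red in C9orf72 ASO replicate 3 and blue in control ASO replicate 3, and Hoxc8 is the reverse. Pbx2 and Pbx3 are blue in all 3 C9orf72 ASO libraries. Pbx2 is also below its mean, by 0.03 to 0.04, in control ASO replicate 1 and saline replicates 2 and 3.

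None of the genes in the lists of Hox regulators, cofactors, relatives and noncoding transcripts passed. This holds for the 2 PREP genes, 12 retinoic acid genes, 3 developmental inducers, 29 Polycomb genes, 13 Trithorax-type genes, 7 TALE and ParaHox relatives and 6 noncoding transcripts tested, in each of the 3 comparisons. Over all genes 0.0693% passed with the C9orf72 ASO against either group, and 0.00693% with the control ASO against saline. Such shares leave little to read from a count of 0 in these lists. The smallest p of the F-test belonged in each list to Pknox2, Rara, Gdf11, Cbx6, Kmt2d, Mkx and Hoxd3os1. Gdf11, a secreted ligand that shifts Hox expression to caudal genes in the embryo, had 15.6, 15.2 and 17.0 RPKM with the C9orf72 ASO, 19.2, 18.2 and 19.0 with the control ASO, and 17.5, 17.7 and 16.3 with saline (log2 fold change -0.24 against the control ASO, SE 0.06, limma adjusted p = 0.234). Its C9orf72 ASO libraries were below those of the control ASO and overlapped with saline.

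Kmt2d, an enzyme that methylates histone H3 at enhancers, had 12.8, 12.1 and 14.3 RPKM with the C9orf72 ASO, 15.4, 15.2 and 15.99 with the control ASO, and 17.9, 16.4 and 16.2 with saline. Its log2 fold change was -0.37 (SE 0.07, limma adjusted p = 0.0874) against saline. Cbx6, a reader of the Polycomb mark, had 33.7, 34.0 and 37.0 RPKM with the C9orf72 ASO, 39.6, 41.7 and 40.0 with the control ASO, and 41.9, 40.1 and 39.3 with saline, with a log2 fold change of -0.21 against either (SE 0.06, limma adjusted p = 0.237 and 0.201). Both genes were lowest in the C9orf72 ASO libraries without overlap, and neither passed. Hoxd3os1, antisense to Hoxd3, had 1.84, 1.68 and 1.67 RPKM with the C9orf72 ASO, 1.32, 1.38 and 1.28 with the control ASO, and 1.78, 1.42 and 1.39 with saline (log2 fold change 0.36 against the control ASO, SE 0.11, limma adjusted p = 0.247). Gm15506, also in the list of noncoding transcripts, lies outside the Hox clusters in the GRCm38 annotation.

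Cell type markers differed between the groups beside these small values. The 10 microglia markers summed to 224 to 237 RPKM with the C9orf72 ASO, 177 to 191 with the control ASO and 174 to 198 with saline, and Tyrobp, a microglial signalling adaptor, passed against saline (0.68, SE 0.10, limma adjusted p = 0.031). The 10 endothelial and mural markers summed to 66.2 to 71.6 RPKM with the C9orf72 ASO, 64.8 to 89.2 with the control ASO and 91.4 to 117 with saline. The 10 neuronal markers summed to 1991 to 2324, 2200 to 2467 and 2153 to 2255 RPKM in the same order, and the 22 spinal transcription factors to 54.7 to 60.8, 62.2 to 63.9 and 59.2 to 65.6. In the list of 6 blood markers S100a9, a neutrophil protein, was at the floor in all libraries with the C9orf72 ASO, at 3.68, 2.48 and 1.52 RPKM with the control ASO, and at the floor in all libraries with saline. It passed for the C9orf72 ASO against the control ASO (limma adjusted p = 0.00115) and for the control ASO against saline (limma adjusted p = 0.00574). No marker of these lists was at the floor in all 9 libraries. In bulk tissue fewer cells of a type and less RNA per cell cannot be told apart, and the part of these shifts in the values of Pbx and Hox genes was not tested.

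Gene length also ran with the fold changes. Between the C9orf72 ASO and the control ASO the median log2 fold change was 0.08 among the shortest genes and -0.07 among the longest, with genes split by exon length into 5 groups of equal size. Pbx3 and Hoxa3 lie in group 4, with a median of -0.04, and Pbx2 in group 2, with a median of 0.01. Their own values were -0.24 to -0.27. These genes were picked for the smallest p of the members, so a distance from the medians follows from the choice. The part of length in their values was not tested.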

How the data were processed

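The deposited table held 1 value per gene for 9 libraries. Per the labels' protocols, RNA was extracted with Trizol and libraries kept strand information. The submitters' processing notes name cutadapt 1.2.1, GSNAP and the mouse build mm9. Sources used here give neither counter nor annotation. The authors' values were taken as RPKM from the values themselves, since the header names no unit. In genes of up to 350 bases, 78.7% to 88.1% of low values lay within 0.1 of whole reads. Each library's depth was the one that made this share largest within a bounded search, so the share is no separate check of it. The read numbers and counting errors given here rest on these depths. No deposited value stood between 0.1 and 0.5. Such a floor overstates changes of genes that reach it, and the pseudocount understates those of other low genes.

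Symbols were matched by Ensembl ID (14321 of 14831). Differences were tested with limma 3.58.1 (statmod 1.5.0, R 4.3.3; trend and robust estimation) on log2(RPKM + 0.1), two-sided, with 14430 genes at or above 0.5 in at least 3 libraries, and the method was tested on simulated data. Shares, sums and correlations are descriptions without a test. Every library's values are printed for Pbx and Meis genes, for the highest member and the highest- and lowest-numbered members past the filter in each cluster, and for the 3 smallest p per comparison. Of each further list the gene with the smallest p of the F-test is named. Values of 2 members are not reported here. The members and lists were chosen with earlier results of these data known. Promoters and microRNAs came from RefSeq tables (GRCm38.p6), exon lengths, overlaps and untranslated regions from GENCODE M21. No coordinates of the mm9 files are printed. Replicate numbers follow the order of deposit and pair no samples.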

Additional observations from a re-analysis of the deposited data

How the results depend on the processing

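No member passed in any of the 75 counts made over 19 alternative settings (pseudocount, filter, scaling, estimation, floor, libraries in the fit). The adjusted p of Pbx3 ranged between 0.0965 and 0.637 against the control ASO and between 0.172 and 0.484 against saline. Counts over all genes moved more. Without a filter, 16 genes passed for the C9orf72 ASO against the control ASO and 5 for the control ASO against saline. Without trend and robust estimation these counts were 19 and 9. With at least 0.5 RPKM in all 9 libraries, 0 genes passed for the control ASO against saline and 11 in the F-test, where fewer genes were tested. With the 6 libraries of the groups compared, 4 genes passed for the C9orf72 ASO against saline. Without C9orf72 ASO replicate 3 and control ASO replicate 3, chosen after seeing the data, 0 genes passed for the control ASO against saline and 7 in the F-test. Leaving out each replicate in turn gave 7 to 27 genes for the C9orf72 ASO against the control ASO, 4 to 54 against saline, 0 to 2 for the control ASO against saline and 5 to 18 in the F-test. The highest of these, 27, 54 and 18, were without C9orf72 ASO replicate 3, and no member was among them. The log2 fold change of C9orf72 between the control ASO and saline was -0.034 to 0.042, on either side of 0. The difference in log2 balance of paralogues 9 and 10 over 4 to 8, C9orf72 ASO minus control ASO, was 0.10 to 0.25 with a replicate left out and 0.055 without both replicate 3 libraries. For the C9orf72 ASO minus saline it was -0.01 to 0.10 and for the control ASO minus saline -0.21 to -0.06. With paralogue 10 over 4 to 9 these differences were -0.10 and -0.38. The share of paralogue 8, 50.1% to 50.5% with a replicate left out, was 60.6%, 46.5%, 45.6% and 47.1% without the Hoxa, Hoxb, Hoxc and Hoxd cluster, alternatives chosen after seeing the data. Except where stated above, the cause of these shifts was not tested. No paired analysis was possible because the labels carry no replicate numbers. Values under 0.5 RPKM limit what can be said of Hoxa10.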
